A study of Homo sapiens with 4 samples.

Results

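ATP-binding cassette (ABC) proteins form one of the largest families of membrane transporters. Most members use the energy of ATP to move drugs, lipids, peptides, heme intermediates or metal cofactors across a membrane, and members of the E and F subfamilies have no membrane domain and act on the ribosome. In chronic myeloid leukemia the family is known chiefly for pumps of the cell surface, among them ABCB1 (P-glycoprotein) and ABCG2 (breast cancer resistance protein), both of which can carry imatinib out of cells. Family genes were taken as all rows of the deposited table whose symbol is ABC, a subfamily letter from A to G and a number, which gave 44 genes of the 28482 in the table. They comprised 12 genes of subfamily A, 9 of B, 11 of C, 4 of D, 1 of E, 3 of F and 4 of G. GENCODE types 43 of them as protein coding, and the other, ABCC13, as a transcribed pseudogene.

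RNA was sequenced from K562/G01 cells, an imatinib-resistant derivative of the chronic myeloid leukemia line K562, which carries the BCR-ABL1 fusion that imatinib inhibits. All cells carried a lentiviral vector, with an shRNA against TCF7 (knockdown) or a scramble shRNA, and each kind was kept with imatinib at 1 µM for 48 hours or without it. TCF7 encodes a transcription factor of the Wnt pathway. The 4 groups, named here as knockdown with imatinib, scramble with imatinib, knockdown, and scramble, had 1 library each, all from 1 cell line. The labels name 1 shRNA construct for the knockdown and give no word on whether infection and treatment were done separately for each culture, so p-values measure only the spread between these 4 libraries, which may be technical.

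Counts per library summed to between 30634832 and 34095585. TCF7 itself had 117 counts in the knockdown library with imatinib, against 367 in the scramble library with imatinib. Without imatinib it had 78 counts in the knockdown library, against 339 in the scramble library. It fell with knockdown by 1.75 on the log2 scale (edgeR adjusted p = 1.51e-07). All 10 listed K562 genes (among them globins HBG1, HBG2 and HBE1, and GATA1, KLF1, TFRC, EPOR, TAL1 and LMO2) passed the filter, with a summed level of 3298 to 3571 CPM per library (CPM is a gene's count scaled to the library's total). Of 14 listed markers of other cells in the table, 6 passed, and their list summed to 550 CPM in the knockdown library with imatinib, 508 in scramble with imatinib, 447 in knockdown without imatinib and 459 in the scramble library. Nearly all of that sum came from the epithelial markers KRT18, KRT8 and EPCAM, the monocyte marker LYZ and the T cell marker CD3D. CD3D had 475 to 688 counts per library and LYZ 1190 to 1350. The other T cell markers in the table, CD3E and CD4, were at 0 in 3 of the 4 libraries. The monocyte markers CD14 and CSF1R had 2 to 9 and 0 to 7 counts per library, and the B cell marker CD79A was at 0 in 2.

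K562/G01 cells transcribed 22 of the 44 family genes at a CPM of at least 1 in 2 libraries, and each of these 22 reached that level in all 4. Per kilobase of exon, the most abundant were those that work on the ribosome rather than on a membrane. ABCF1, which helps assemble the translation initiation machinery, had 73.3 CPM per kilobase in the knockdown library with imatinib, 71.7 in the scramble library with imatinib, 57.7 in the knockdown library and 60.2 in the scramble library. ABCE1, which splits ribosomes after termination so that they can be used again, had 50.9, 53.5, 57.6 and 57.0 CPM per kilobase in the same libraries and order. ABCF2, a further cytosolic ATPase of the same kind, had 34.7, 33.4, 30.1 and 29.2 CPM per kilobase. ABCF1 and ABCF2 were higher in both imatinib libraries than in both others, and ABCE1 was lower. Together ABCE1 and the 3 ABCF genes took 55.9% of all family CPM in the knockdown library with imatinib, 51.7% in the scramble library with imatinib, 53.8% in the knockdown library and 50.9% in the scramble library.

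ABCB10, a transporter of the inner mitochondrial membrane that is needed for hemoglobin production in erythroid cells, had a mean of 29.9 CPM per kilobase and overlapped ABCF2 across the 4 libraries. The 2 drug pumps ABCC4 and ABCC5 followed at means of 14.8 and 11.2 CPM per kilobase. ABCF3 stood at 8.88 to 11.2 over the 4 libraries and the drug pump ABCC1 at 7.24 to 9.14. The ranges of ABCC4 and ABCC5 over the 4 libraries overlapped, as did those of ABCC5 and ABCF3, and of ABCF3 and ABCC1. Within every library, however, ABCC4 was above ABCC5, and ABCF3 was above ABCC1. ABCC5 was above ABCF3 except in the knockdown library with imatinib, at 10.7 against 11.2 CPM per kilobase. The order of neighbours was not tested. The levels of the 22 genes spanned from ABCF1 down to ABCA5, with a mean of 0.142 CPM per kilobase.

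**Figure D1:**
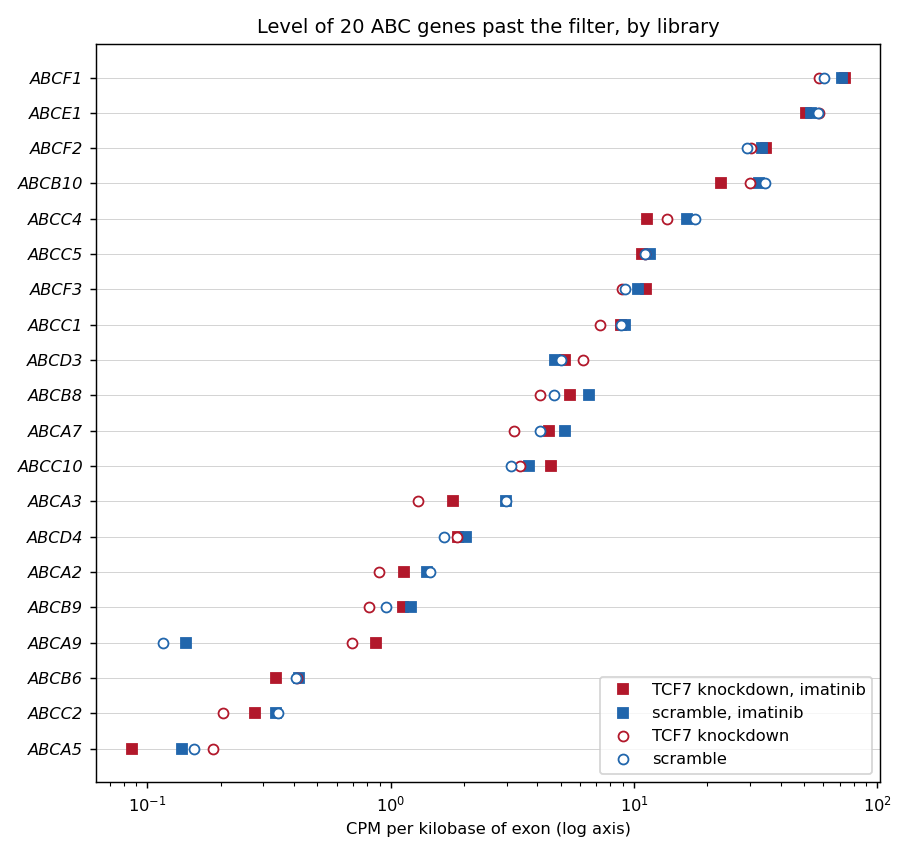
Level of 20 of the 22 ABC genes past the filter, in CPM per kilobase of exon on a log axis, with 1 point per library (squares with imatinib, circles without, red knockdown, blue scramble). ABCF1 and ABCE1 lead, and ABCA9 is the gene whose red and blue points lie farthest apart.

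The other 22 family genes stayed below 1 CPM in at least 3 libraries, with at most 49 counts in any library. Of these, 17 had fewer than 10 counts in every library and 8 had at most 3. They include all 4 genes of subfamily G in the table, the sterol exporters ABCG1, ABCG4 and ABCG5 beside ABCG2. The cholesterol exporter ABCA1 had 9 counts in both imatinib libraries, 10 in the knockdown library and 7 in the scramble library. The retinal flippase ABCA4, the skin lipid transporter ABCA12 and ABCA13 had at most 7 counts in any library. The potassium channel subunits ABCC8 and ABCC9 had at most 9, and the pseudogene ABCC13 at most 5. Peroxisomal ABCD2, ABCB5, ABCG1, ABCG4 and ABCG5 had 0 to 2 counts per library. The bile salt export pump ABCB11 had 8 counts in the knockdown library with imatinib, 24 in the scramble library with imatinib, 12 in the knockdown library and 17 in the scramble library. These counts are too low for a comparison of most of these genes between libraries.

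Of the 10 cell surface drug efflux genes in the table, 5 passed the filter (ABCC1, ABCC2, ABCC4, ABCC5 and ABCC10) and 5 did not (ABCB1, ABCG2, ABCC3, ABCC6 and ABCC11). The 2 pumps best known for carrying imatinib were both in the second class. ABCB1 had 0 counts in the knockdown library with imatinib, against 13 in scramble with imatinib, and 4 in the knockdown library, against 11 in the scramble library. Both knockdown libraries were lower than both scramble libraries. A count of 0 allows up to 0.0945 CPM in the knockdown library with imatinib, which is 4.03-fold below the 0.381 CPM of the scramble library with imatinib when its 13 counts are taken as exact. With counting error in both libraries, the interval of the log2 ratio had its upper end at -1.49. Without imatinib the log2 ratio of knockdown over scramble was -1.03, with a counting interval from -3.44 to 0.42 that spans 0. Tested without the filter, ABCB1 was not called for knockdown (log2 fold change -2.61 ± 1.38 (SE), edgeR adjusted p = 0.521).

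ABCG2 had 1 count in the knockdown library with imatinib, 1 in the scramble library with imatinib, 0 in the knockdown library and 1 in the scramble library. At this depth 3 counts correspond to 0.088 to 0.0979 CPM, so no difference in ABCG2 was detectable. ABCC6, a liver and kidney transporter linked to extracellular pyrophosphate, had 1, 1, 0 and 4 counts in the same order, and ABCC11 (MRP8), a transporter of cerumen glands, had 9, 7, 0 and 5. Some ABCC6 reads could belong to its near-identical pseudogene copies, of which ABCC6P1 had at most 1 count per library. Exons of ABCC11 overlap those of LONP2 on the opposite strand over 4.04% of their length, and LONP2 had 2935 to 3195 counts, so part of the ABCC11 counts is uncertain.

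ABCC3 (MRP3), a pump of conjugated organic anions, lay just under the filter. It had 21 counts in the knockdown library with imatinib, against 49 in scramble with imatinib, and 1 count in the knockdown library, against 28 in the scramble library. All knockdown counts were below all scramble counts. The log2 ratio of knockdown over scramble under imatinib was -1.03 with a counting interval from -1.91 to -0.34. Without imatinib the CPM of the knockdown library was 0.0386 times that of the scramble library, with a counting interval from -10.04 to -2.09 on the log2 scale. Tested without the filter, ABCC3 fell with knockdown (log2 fold change -2.03 ± 0.596 (SE), edgeR adjusted p = 0.0249), beside 1.51% of all 28482 genes called lower and 1.7% called higher in that fit.

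A promoter window is shown for ABCB1 because it holds a match to the core of the motif that TCF/LEF factors such as TCF7 bind. The window runs from 250 bases before to 50 after the RefSeq transcript start, chr7:87600835-87601134 on the minus strand of GRCh38.p14. Capitals mark the core CTTTGA, here read on the other strand as TCAAAG, 24 bases after the start.
ABCB1: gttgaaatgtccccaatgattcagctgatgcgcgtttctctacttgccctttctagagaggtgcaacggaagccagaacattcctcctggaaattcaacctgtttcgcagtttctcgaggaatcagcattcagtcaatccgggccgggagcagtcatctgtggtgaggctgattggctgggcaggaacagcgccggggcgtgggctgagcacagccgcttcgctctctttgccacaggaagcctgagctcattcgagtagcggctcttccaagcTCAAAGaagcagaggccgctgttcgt
RefSeq windows were matched for 33 of the 44 family genes, 49 windows in all. CTTTGA on either strand was in 10.2% of them, against 12.9% of 35091 windows of all genes. Besides ABCB1, windows of ABCA1, ABCB9, ABCC9 and ABCD2 held it. Of these genes only ABCB9 passed the filter, and it was not called for knockdown (edgeR adjusted p = 0.62). The others were below the filter and could not be called in the main fit, so the calls say little about the core. A second window of ABCB1, chr7:87713246-87713545, did not hold it. The E-box CACGTG was in 18.4%, against 7.26% of all windows; of the 9 family windows with it, 2 are overlapping windows of ABCG2 that hold the same E-box. ACGTG, the core of the hypoxia element, was in 26.5%, against 21.4%; every CACGTG holds it. CCAAT was in 22.4%, against 34.6%. A match is a stretch of letters and not a bound site.

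Among the drug pumps past the filter, ABCC4 was the 1 that fell with knockdown, as described with the other knockdown results. It had the highest mean per kilobase of these 5, while ABCC5 had more CPM in both knockdown libraries. ABCC1 (MRP1), which exports glutathione conjugates, had 2131 counts in the knockdown library with imatinib, against 2362 in scramble with imatinib, and 1681 in the knockdown library, against 2220 in the scramble library. The knockdown library was lower than scramble in both pairs, but the libraries overlapped between pairs, and ABCC1 was not called (log2 fold change -0.15 ± 0.0867 (SE), edgeR adjusted p = 0.351). ABCC2 (MRP2), an exporter of conjugates best known from the liver, had 69 counts in the knockdown library with imatinib, against 90 in scramble with imatinib, and 49 in the knockdown library, against 89 in the scramble library. Both knockdown libraries were below both scramble libraries, by a fitted -0.49 ± 0.329 (SE) that was not called (edgeR adjusted p = 0.449).

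ABCC5 (MRP5), a transporter of cyclic nucleotides and nucleotide analogs, had 3896 counts in the knockdown library with imatinib, 4547 in the scramble library with imatinib, 3900 in the knockdown library and 4206 in the scramble library, and was not called for either factor. ABCC10 (MRP7), which can export taxanes, had 1164 counts in the knockdown library with imatinib, 1020 in the scramble library with imatinib, 838 in the knockdown library and 840 in the scramble library. It was not called for knockdown (edgeR adjusted p = 0.253). The median log2 ratio of the 5 pumps was -0.10 for knockdown over scramble under imatinib and -0.28 without, beside medians of 0.02 and 0.00 over all 13296 genes tested.

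**Figure D2:**
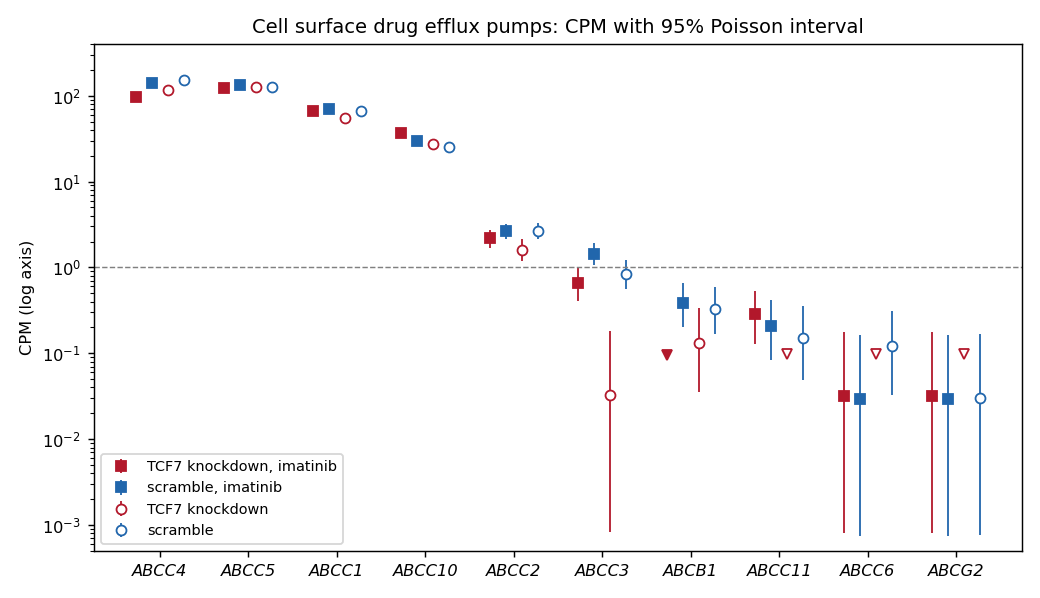
CPM of the 10 cell surface drug efflux genes on a log axis, 1 point per library with its exact 95% Poisson interval, which covers counting error only. Triangles stand at the CPM of 3 counts where a library had 0, and the dashed line is 1 CPM. The 5 genes on the left lie above the line in every library, and ABCB1 and ABCG2 lie below it.

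Across the 22 family genes tested, knockdown was followed by a rise of 1 and a fall of 4. ABCA9 rose about 6-fold, and ABCA3, ABCC4, ABCB10 and ABCA2 fell by between 0.35 and 0.94 on the log2 scale. The test was edgeR's quasi-likelihood test of knockdown over both imatinib states, adjusted over 13296 genes with calls at 0.05. Over all genes it called 3.8% higher and 3.34% lower, which is the share to set beside 1 and 4 of 22. In this bulk RNA, fewer cells that express a gene and less RNA per cell cannot be told apart.

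ABCA9 had 252 counts in the knockdown library with imatinib (7.94 CPM), against 45 in the scramble library with imatinib (1.32 CPM). Without imatinib it had 194 counts in the knockdown library (6.33 CPM), against 35 in the scramble library (1.06 CPM). Both knockdown libraries lay above both scramble libraries with no overlap. The CPM was 6.015-fold higher with imatinib and 5.997-fold higher without, and the log2 ratios of 2.55 and 2.52 had counting intervals from 2.15 to 3.10 and from 2.07 to 3.16. The fitted log2 fold change was 2.60 ± 0.272 (SE, edgeR adjusted p = 1.43e-08). ABCA9 is a little studied member of subfamily A that has been described in human macrophages as responsive to sterols. Of the 22 family genes past the filter, ABCA9 was the only one at 2-fold or more in the pair with imatinib, where 2.83% of all genes past it were, and 1 of 2 in the pair without imatinib, where 2.68% were.

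ABCA9 belongs to a head-to-tail cluster of closely related genes on chromosome 17 with ABCA8, ABCA6, ABCA10 and ABCA5, and it lies at chr17:68974488-69061064 on the minus strand (GRCh38). A window of 500 kb to each side, chosen after its values were seen, held 11 genes of the table, of which 3 passed the filter and 1, ABCA9, was called. PRKAR1A, the protein kinase A subunit gene at the end of the window, had log2 ratios of 0.13 in both pairs. ABCA8 had 2 counts in the knockdown library with imatinib, against 1 in scramble with imatinib, and 9 in the knockdown library, against 0 in the scramble library. ABCA6 had 4 to 6 counts and ABCA10 1 to 4 counts in every library. ABCA9-AS1, whose exons overlap 5.84% of those of ABCA9 on the opposite strand, had at most 1 count.

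**Figure D3:**
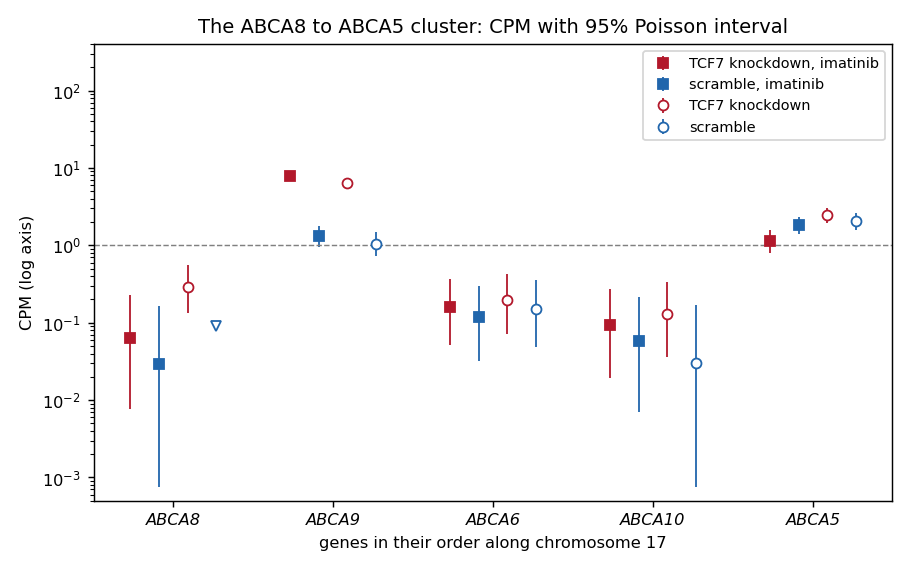
CPM of the 5 clustered subfamily A genes in their order along chromosome 17, on a log axis with exact 95% Poisson intervals (counting error only). The triangle stands at the CPM of 3 counts for a library with 0, and the dashed line is 1 CPM. Red and blue points separate clearly for ABCA9, at 7.94 and 6.33 CPM in the knockdown libraries against 1.32 and 1.06 in the scramble libraries.

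A marker of another cell type moved with knockdown in the same direction. The fibroblast collagen gene COL1A1 had 32 counts in the knockdown library with imatinib, against 7 in scramble with imatinib, and 42 in the knockdown library, against 5 in the scramble library (edgeR adjusted p = 0.00142). DESeq2 did not call COL1A1 for knockdown (DESeq2 adjusted p = 0.138). Its partner COL1A2 had 0 to 2 counts per library, and the fibroblast marker DCN had 24, 5, 10 and 16 counts in the order knockdown with imatinib, scramble with imatinib, knockdown and scramble. COL1A1 was the 1 marker called higher among the 6 tested, and 0 were called lower, beside 3.8% and 3.34% of all genes. It passed the filter only through the 2 knockdown libraries, at 1.01 CPM with imatinib and 1.37 without. The scramble libraries had 0.205 CPM with imatinib and 0.151 without. The filter thus admitted COL1A1 through the group where it is high, so its call is not independent of the filter. The part of COL1A1 in the change of ABCA9 was not tested.

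Promoter windows are shown for ABCA9 and for the most strongly called genes that fell, because their base composition differs. The windows are chr17:69060878-69061177 for ABCA9, chr16:2340679-2340978 for ABCA3, chr13:95301402-95301701 for ABCC4 and chr1:229558658-229558957 for ABCB10, each on the minus strand, from RefSeq on GRCh38.p14. Capitals mark the E-box CACGTG, and none of the 4 windows holds CTTTGA on either strand.
ABCA9: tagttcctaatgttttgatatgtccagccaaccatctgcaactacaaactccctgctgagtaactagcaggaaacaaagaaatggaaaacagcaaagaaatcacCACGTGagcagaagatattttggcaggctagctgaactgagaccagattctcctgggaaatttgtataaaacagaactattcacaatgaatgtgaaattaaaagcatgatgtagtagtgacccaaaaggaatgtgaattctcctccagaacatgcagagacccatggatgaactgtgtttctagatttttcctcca
ABCA3: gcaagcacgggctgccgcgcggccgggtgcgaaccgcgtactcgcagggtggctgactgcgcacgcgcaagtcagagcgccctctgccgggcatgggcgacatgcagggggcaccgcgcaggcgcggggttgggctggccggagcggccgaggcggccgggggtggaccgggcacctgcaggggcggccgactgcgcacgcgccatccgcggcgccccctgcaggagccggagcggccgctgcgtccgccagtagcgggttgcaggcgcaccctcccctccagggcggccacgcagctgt
ABCC4: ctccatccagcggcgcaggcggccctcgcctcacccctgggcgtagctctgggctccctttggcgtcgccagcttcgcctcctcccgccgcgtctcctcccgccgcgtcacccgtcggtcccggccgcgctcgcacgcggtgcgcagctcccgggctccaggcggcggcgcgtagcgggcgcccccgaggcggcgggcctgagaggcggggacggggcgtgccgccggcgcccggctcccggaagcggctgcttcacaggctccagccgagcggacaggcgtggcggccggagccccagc
ABCB10: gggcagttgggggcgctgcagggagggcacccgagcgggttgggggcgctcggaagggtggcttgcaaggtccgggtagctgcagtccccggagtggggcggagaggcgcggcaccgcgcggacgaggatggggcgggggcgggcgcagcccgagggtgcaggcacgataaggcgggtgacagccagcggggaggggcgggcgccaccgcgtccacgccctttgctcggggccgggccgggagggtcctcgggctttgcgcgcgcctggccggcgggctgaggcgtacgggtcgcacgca
The ABCA9 window had 39.7% G and C and 1 E-box, at position -146 from the start. The windows of ABCA3, ABCC4 and ABCB10 had 78.0%, 79.7% and 77.3%, beside a median of 58.7% over all windows. ABCA2, which also fell, had windows of 86.7% and 64.3%. Among genes not called for knockdown in the main fit, the windows of ABCD3, ABCA5 and ABCC2 had 75.0%, 76.3% and 45.0%. The part of window composition in the knockdown changes was not tested.

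ABCA3 showed the largest fall among the 22 genes past the filter. This transporter loads phospholipids into lamellar bodies of the lung and has been described on lysosomal membranes of leukemia cells. It had 448 counts in the knockdown library with imatinib, against 795 in scramble with imatinib, and 309 in the knockdown library, against 768 in the scramble library. The knockdown and scramble libraries did not overlap. The log2 ratios were -0.70 with imatinib and -1.19 without, and the fit gave -0.94 ± 0.139 (SE, edgeR adjusted p = 9.75e-06). Counting intervals, from -0.88 to -0.54 and from -1.39 to -0.999, did not meet, but the difference between the pairs was not tested.

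ABCC4 (MRP4), which exports cyclic nucleotides and several nucleotide analog drugs, had 3104 counts in the knockdown library with imatinib, against 4847 in scramble with imatinib, and 3595 in the knockdown library, against 5116 in the scramble library. Both knockdown libraries were below both scramble libraries, with log2 ratios of -0.52 and -0.39. The fitted log2 fold change was -0.45 ± 0.0746 (SE, edgeR adjusted p = 6.32e-05). ABCA2, a transporter of late endosomes and lysosomes tied to sterol and sphingolipid handling, had 416 counts in the knockdown library with imatinib, against 555 in scramble with imatinib, and 316 in the knockdown library, against 555 in the scramble library. It fell by 0.49 ± 0.146 (SE, edgeR adjusted p = 0.034).

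ABCB10 had 3068 counts in the knockdown library with imatinib, against 4739 in scramble with imatinib, and 3905 in the knockdown library, against 4862 in the scramble library. All knockdown counts were below all scramble counts, with log2 ratios of -0.50 and -0.19, and the gene fell by 0.35 ± 0.0783 (SE, edgeR adjusted p = 0.00331). Its processed copies ABCB10P1, ABCB10P3 and ABCB10P4 had 72 to 94, 164 to 202 and 462 to 540 counts per library, and the sources do not say how reads shared with ABCB10 were assigned. ABCB10 is known to stabilise the iron importer mitoferrin-1, encoded by SLC25A37, in erythroid mitochondria. SLC25A37 had 4844 counts in the knockdown library with imatinib, against 7607 in scramble with imatinib, and 5127 in the knockdown library, against 7668 in the scramble library, and fell by 0.49 ± 0.0711 (SE, edgeR adjusted p = 6.99e-06).

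The remaining 17 genes were not called for knockdown. ABCB8, a mitochondrial inner membrane transporter, was lower in knockdown in both pairs, with log2 ratios of -0.23 with imatinib and -0.18 without. ABCA7, a phospholipid transporter of macrophages and microglia, had -0.20 and -0.34 in the same order. ABCD3, which brings branched-chain fatty acids and bile acid precursors into peroxisomes, had 0.15 and 0.31. ABCB6, a porphyrin transporter that carries the Langereis blood group, had 56 counts in the knockdown library with imatinib, 75 in scramble with imatinib, 66 in the knockdown library and 71 in the scramble library. Its exons share 54.7% of their length with another annotated gene on the same strand, and those of ABCF2 share 45.8%, so both counts are uncertain. Without ABCA9, the 21 other genes had log2 ratios of at most 0.31 in either pair. In all, 4 of 22 genes had ratios above 0 in both pairs, 10 had ratios below 0 in both and 8 changed sign between pairs. The median over the 22 genes was -0.09 with imatinib and -0.06 without, beside 0.02 and 0.00 over all genes tested.

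**Figure D4:**
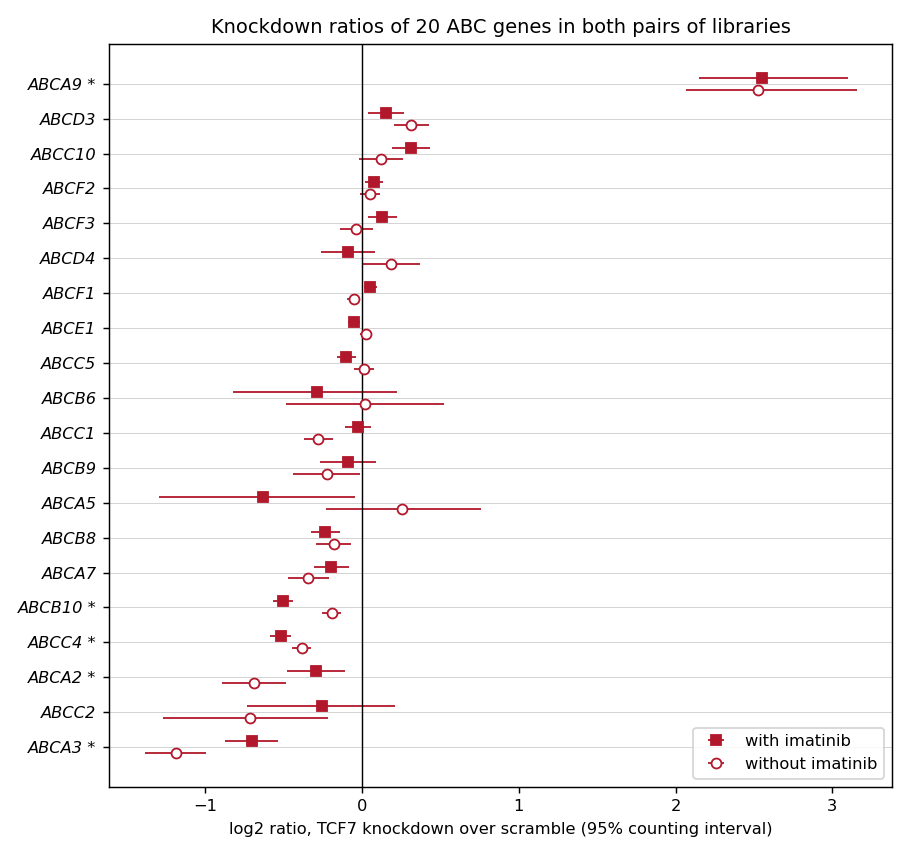
Log2 ratio of knockdown over scramble for 20 of the 22 ABC genes tested, with imatinib (squares) and without (circles); bars are 95% counting intervals, and asterisks mark genes called by edgeR. ABCA9 lies at 2.55 and 2.52, and the 4 called genes at the foot lie below 0 in both pairs.

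By role, the lipid transport list held 1 riser (ABCA9) and 2 fallers (ABCA3, ABCA2) of 5 tested, the drug efflux list 1 faller (ABCC4) of 5, and the mitochondrial list 1 faller (ABCB10) of 4. These calls stand beside 3.8% of all genes called higher and 3.34% lower. ABCE1 and the 3 ABCF genes had 0 calls of 4 for knockdown, with medians of 0.06 with imatinib and -0.01 without. Peroxisomal ABCD3, lysosomal ABCD4 (cobalamin) and lysosomal ABCB9 (peptides) also had 0 calls. With offsets for the GC content and length of transcripts, edgeR called 8 family genes, adding ABCD3 (higher) and ABCB8 and ABCA7 (lower); that fit called 5.91% of all genes higher and 6.31% lower. DESeq2 called ABCA9, ABCA3 and ABCC4 but not ABCB10 (DESeq2 adjusted p = 0.0607) or ABCA2, at 0.963% of all genes called higher and 1.08% lower. Fits with 1 library left out also leave out imatinib as a factor and set 1 library of an arm against 2 of the other. Without the scramble library, or without the scramble library with imatinib, only ABCA9 was called among the 22, where these fits called 0.184% and 0.277% of all genes. Without the knockdown library with imatinib, ABCA9 and ABCA3 were called, beside 1.88% of all genes. Without the knockdown library, ABCA9, ABCA3, ABCB10 and ABCC4 were called, beside 5.69% of all genes. Fitted on all 4 libraries without imatinib as a factor, 0 family genes were called (ABCA9 edgeR adjusted p = 0.0526), as were 0 of all genes tested (818 at an unadjusted p under 0.05).

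Imatinib was followed by a rise of 6 of the 22 genes and a fall of 1, in the same additive fit over both knockdown states. Among the genes that rose were ABCB8, ABCA7, ABCB9, ABCC10 and ABCF1, and ABCB10 fell. Over all genes tested the fit called 13.8% higher and 7.08% lower, so 1 faller of 22 is near the share over all genes. With GC content and length as offsets, 0 of the 22 genes were called (3 at an unadjusted p under 0.05), where 2.29% of all genes were called higher and 2.45% lower. DESeq2 called ABCB8 and ABCF1 among the 17 family genes to which it gave an adjusted p, beside 8.08% of all genes higher and 2.56% lower. With 1 library and knockdown as a factor left out, edgeR called 0 of all genes in 3 of the 4 fits. The fit without the scramble library with imatinib called 6.52% of all genes and 1 family gene, ABCB10.

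ABCB8 had 1621 counts in the knockdown library with imatinib, against 1173 in the knockdown library, and 2077 in the scramble library with imatinib, against 1447 in the scramble library. Both imatinib libraries were above both others. The fitted change was 0.44 ± 0.0915 (SE, edgeR adjusted p = 0.000749), and 0.06 with the GC and length offsets. ABCF1 had 10531 counts in the knockdown library with imatinib, against 7993 in the knockdown library, and 11052 in the scramble library with imatinib, against 9033 in the scramble library. It rose by 0.29 ± 0.0698 (SE, edgeR adjusted p = 0.00316), and had 0.15 with the offsets (edgeR adjusted p = 0.102).

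ABCA7 rose by 0.40 ± 0.101 (edgeR adjusted p = 0.00415), ABCC10 by 0.32 ± 0.107 (adjusted p = 0.0289) and ABCB9 by 0.40 ± 0.144 (adjusted p = 0.0445), each with its SE. ABCA7 had 1189 counts in the knockdown library with imatinib, against 821 in the knockdown library, and 1484 in the scramble library with imatinib, against 1134 in the scramble library; the imatinib and other libraries did not overlap. ABCB9 had 475 counts, against 330, in the knockdown libraries with and without imatinib, and 550, against 420, in the scramble libraries with and without imatinib. With the offsets ABCA7 and ABCB9 had -0.11 and -0.07. Exons of ABCB9 share 12.5% and 12.0% of their length with OGFOD2 and ARL6IP4 on the opposite strand, so its counts are uncertain. ABCB10 fell with imatinib by 0.25 ± 0.0783 (SE, edgeR adjusted p = 0.0228), and its log2 ratio was -0.40 in knockdown cells and -0.09 in scramble cells. The difference between these ratios was not tested.

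Pair by pair, 2 of the 22 family genes past the filter passed 2-fold for imatinib in knockdown cells, where 3.71% of all genes past it did, and 0 passed it in scramble cells, where 1.31% did. One of these was ABCA5, a lysosomal lipid transporter, with a log2 ratio of -1.07 and a counting interval from -1.73 to -0.52. ABCA5 had 36 counts in the knockdown library with imatinib, against 75 in the knockdown library, and 62 in the scramble library with imatinib, against 68 in the scramble library, and was not called (edgeR adjusted p = 0.213). ABCA5 has the lowest transcript GC content of the 22 genes, 33.1%. Against the scramble library without imatinib, the knockdown library with imatinib had 1 of the 22 genes at 2-fold or more, ABCA9, where 4.75% of all genes past the filter were.

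Over the 22 genes, the imatinib log2 ratio rose with transcript GC content, with a Spearman rho of 0.727 in knockdown cells and 0.643 in scramble cells. Over the 10095 genes whose mean CPM was at least 5, the values were 0.751 and 0.682. These are correlations across genes, which share libraries and are not independent replicates. For knockdown over scramble the family's rho was -0.005 with imatinib and -0.561 without, and over the 10095 genes 0.366 and -0.109. The part of base composition in the imatinib changes cannot be told apart from the groups here, since each group is 1 library.

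**Figure D5:**
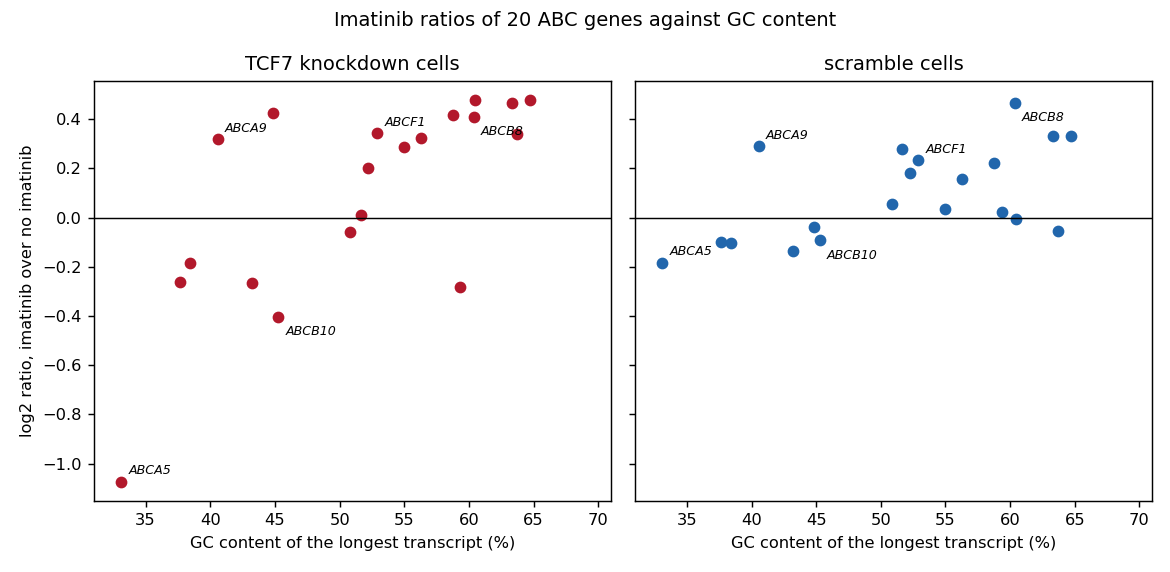
Log2 ratio of imatinib over no imatinib against the GC content of the longest transcript for 20 of the 22 ABC genes tested, in knockdown cells (left) and scramble cells (right). ABCA5, at 33.1%, has the lowest ratio in both panels, and ABCB8, ABCF1 and ABCA9 lie above 0 in both.

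By role, the genes named above that rose with imatinib came from separate lists: lipid transport (ABCA7, 1 of 5), mitochondrial (ABCB8, 1 of 4), lysosomal peptide (ABCB9, 1 of 1), drug efflux (ABCC10, 1 of 5) and ribosome (ABCF1, 1 of 4). Over all genes tested, 13.8% were called higher with imatinib. The 4 ribosome genes had median log2 ratios of 0.26 in knockdown cells and 0.17 in scramble cells, beside 0.01 and -0.01 over all genes. ABCE1 differed in sign from the ABCF genes, with -0.18 in knockdown cells and -0.10 in scramble cells, and was not called (edgeR adjusted p = 0.133). ABCE1 has a transcript GC content of 38.4%, against 52.2% to 56.3% for the ABCF genes. Summed over the 44 genes, family CPM was 1528 in the knockdown library with imatinib, against 1477 in the knockdown library, and 1648 in the scramble library with imatinib, against 1571 in the scramble library.

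The family members named under other symbols, TAP1 and TAP2, which load peptides for MHC class I, were tested and not called for either factor. TAP2 had 22.4 to 25.3 CPM per library and TAP1 0.535 to 1.47 CPM. The knockdown log2 ratio of TAP1 was -1.34 with imatinib, with a counting interval from -2.32 to -0.62. Without imatinib it was 0.62, with an interval from -0.09 to 1.42. The additive fit averages these opposite signs, and the difference between the pairs was not tested. Of 7 carriers and vault genes linked to drug uptake or response that were in the table, 5 passed the filter, with 0 calls for knockdown. Over all genes tested, knockdown called 3.8% higher and 3.34% lower. SLCO1A2, an organic anion uptake carrier, fell with imatinib by 0.41 (edgeR adjusted p = 0.0496), and had -0.24 with the offsets. It was the 1 call among these 5 for imatinib, beside 7.08% of all genes called lower. DESeq2 did not call it (DESeq2 adjusted p = 0.219).

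Of 19 partners of the mitochondrial, peroxisomal, lysosomal and ribosomal members, 2 rose with knockdown and 1, SLC25A37, fell. Over all genes tested, knockdown called 3.8% higher and 3.34% lower, and imatinib 13.8% higher and 7.08% lower. ALAS2, the first enzyme of erythroid heme synthesis, rose by 0.52 ± 0.0961 (SE, edgeR adjusted p = 0.000317). PEX19, the chaperone that brings ABCD proteins to peroxisomes, rose by 0.52 ± 0.109 (SE, edgeR adjusted p = 0.00149), with 1106 counts in the knockdown library with imatinib, against 798 in scramble with imatinib, and 959 in the knockdown library, against 764 in the scramble library. For imatinib, the peroxisome factor PEX16 rose by 0.62 (edgeR adjusted p = 0.0435) and HBS1L, which frees stalled ribosomes together with ABCE1, fell by 0.25 (edgeR adjusted p = 0.011). Both calls were lost with the offsets. In that fit the partners ALAS2 (-0.24, edgeR adjusted p = 0.0424) and TMEM14C (-0.22, edgeR adjusted p = 0.011) were called lower with imatinib, beside 2.45% of all genes. DESeq2 called ALAS2 and SLC25A37 for knockdown, but not PEX19 (DESeq2 adjusted p = 0.056). For imatinib DESeq2 called HBS1L and gave PEX16 no adjusted p. The partners' median knockdown ratios were 0.12 with imatinib and 0.00 without.

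Of 19 listed transcription factors known to control ABC genes, 17 passed the filter, and with knockdown 1 rose and 0 fell. Over all genes tested, 3.8% were called higher with knockdown and 3.34% lower. EPAS1, the hypoxia factor HIF-2 alpha, rose by 0.45 ± 0.104 with knockdown (SE, edgeR adjusted p = 0.00415). DESeq2 did not call it for knockdown (DESeq2 adjusted p = 0.117). It had 1542 counts in the knockdown library with imatinib, against 1098 in scramble with imatinib, and 994 in the knockdown library, against 887 in the scramble library. With imatinib 6 of the 17 rose and 0 fell, beside 13.8% of all genes called higher and 7.08% lower. The liver X receptor NR1H2 rose by 0.54, its partner RXRA by 0.36 and the lipid regulator SREBF1 by 0.60. The NRF2 inhibitor KEAP1 rose by 0.49, EPAS1 by 0.42 and MYC by 0.28 (edgeR adjusted p from 1.63e-05 to 0.0396 for the 6). With the offsets EPAS1 was the 1 of these 6 still called (0.30, edgeR adjusted p = 0.0269). DESeq2 called SREBF1, KEAP1 and MYC for imatinib, but not NR1H2, RXRA or EPAS1 (DESeq2 adjusted p from 0.0644 to 0.211). The xenobiotic receptors NR1I2 and NR1I3, which induce ABCB1 in liver, had 0 to 3 counts per library.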

How the data were processed

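RNA of 4 cultures was depleted of ribosomal RNA and made into directional libraries, per the labels' protocols. Per the submitters' processing notes, FastQC, HISAT2, HTSeq 0.6.1 and the build GRCh38 were used. For the annotation release and for strand in counting the setting is not given in the sources used here, so overlapping genes and near-identical copies are uncertain. The authors deposited whole-number read counts per gene, used as deposited. The FPKM columns that the authors deposited hold negative values for 6 genes (0 of them family genes) and were treated as a score, used only for alternatives as log2(value + 0.1). Another 4 per-sample columns were not used.

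Tests covered genes that reached a CPM of 1 in 2 or more libraries, 13296 in all. Effects of knockdown and of imatinib came from edgeR 4.0.16 (R 4.3.3), quasi-likelihood test, TMM factors, an additive design over 4 libraries with 1 residual degree of freedom (33.8 prior degrees of freedom), adjusted over all genes tested by Benjamini-Hochberg. The residual degree of freedom is the interaction of knockdown and imatinib, so a difference between pairs enters the residual. An SE is the log2 fold change divided by the square root of F. With 1 library per group, pairs are sizes only: log2 ratios of TMM-scaled CPM with a prior count of 2 and an exact 95% binomial interval. CPM intervals are exact Poisson, and a count of 0 allows 3 counts. Reads are not independent molecules, so these intervals hold counting error alone. The code was tested on simulated data.

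GC content is that of the longest GENCODE 29 transcript; all 44 family genes matched this annotation. Offsets were a smooth trend over GC content and length per library (mgcv 1.9.3). Alternatives used DESeq2 1.42.0, limma 3.58.1, other scalings and filters, a fit of 1 factor alone, and fits with 1 library left out. The family, the role lists (lipid transport, drug efflux, mitochondrial, peroxisomal, lysosomal, ribosome), the partner, carrier and transcription factor lists, the marker lists, and the alternatives were chosen with earlier results of these data known. Genes were given in full where called for either factor, at 2-fold or more in a pair with a mean CPM of 1 or more, on the drug efflux list, or among the 6 highest per length. ABCC12, ABCG8, CD8A, MS4A1, PPARG, SLCO1B3, SLC22A3 and AHR were not analysed here. Results for some genes are not reported here, and 2 of the 22 tested family genes are not drawn.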

Additional observations from a re-analysis of the deposited data

Results flagged for a closer look

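ABCF1 differed in sign between the 2 knockdown ratios by more than counting error. Its log2 ratio of knockdown over scramble was 0.05 with imatinib (interval 0.01 to 0.09) and -0.05 without (interval -0.10 to -0.01), a difference of 0.107. The intervals cover counting error only, each group is 1 library, and the difference was not tested.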

How the results depend on the processing

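The knockdown count of 5 family genes was 8 with GC and length offsets, 3 with DESeq2, 2 with limma on the deposited FPKM (ABCA9 and ABCC4) and 0 without imatinib in the fit (4 at an unadjusted p under 0.05), where TCF7 also missed the threshold at -1.74. Leaving out 1 library in turn, which also leaves out the other factor, gave 1 to 4, and ABCA9 was called each time. In the limma fit of 13292 genes, knockdown called 88 higher and 107 lower, and imatinib 917 higher and 177 lower. The imatinib count of 7 was 0 with the offsets, 2 with DESeq2 and 1 with limma (ABCF1). Without knockdown in the fit it was 0 (7 at an unadjusted p under 0.05), and with 1 library left out it was 0 to 1, the 1 being ABCB10 without the scramble library with imatinib. The cause of these differences was not tested.

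Some imatinib changes turned. With the offsets ABCA7 had -0.11, ABCB9 -0.072, ABCC1 -0.030 and ABCC5 -0.071. ABCC5, which was near 0, also had -0.0084 with DESeq2 size factors, -0.0056 without a filter and -0.0084 with DESeq2. With 1 library and the knockdown factor left out, so that the knockdown difference enters the imatinib change by construction, that change in ABCB10 ranged from -0.50 to 0.016, ABCC2 from -0.16 to 0.58, ABCC4 from -0.47 to 0.062 and ABCC5 from -0.049 to 0.065, and, with imatinib left out in the same way, the knockdown change of ABCC10 from -0.0062 to 0.41. Among single genes, 84 of 107 knockdown alternatives and 63 of 128 imatinib alternatives kept direction and side of the threshold. For imatinib 50 were no longer past the threshold and 13 turned.

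Without a filter the genes at 2-fold or more numbered 6 for knockdown with imatinib, 11 for knockdown without, 9 for imatinib in knockdown cells, 2 for imatinib in scramble cells and 6 for both over neither. The genes added there had at most 49 counts in any library. At a fold limit of 1.5, with the filter, the genes numbered 3 for knockdown with imatinib, 4 for knockdown without and 6 for both over neither. The shares over all genes at these settings are not given here, so these counts show nothing particular to the family. The 2 genes for imatinib in knockdown cells became 1 with the deposited FPKM, 0 with the GC and length trend removed and 0 with a filter at 5 CPM, and both over neither gave 2 with the trend removed. Replicates could not be paired, because each group has 1 library, and the additive fit compared knockdown with scramble within each imatinib state. With 1 library per group and 1 residual degree of freedom, most genes under 1 CPM had too few counts to compare.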

Other observations

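CFTR, the chloride channel of subfamily C, stayed under the filter. It had 21 counts in the knockdown library with imatinib, against 6 in scramble with imatinib, and 60 in the knockdown library, against 2 in the scramble library. Both knockdown libraries were above both scramble libraries. Tested without the filter, it rose with knockdown (log2 fold change 3.28 ± 0.687 (SE), edgeR adjusted p = 0.000202). The pseudogene ABCA11P had 25 counts in the knockdown library with imatinib, 65 in scramble with imatinib, 59 in knockdown without imatinib and 73 in scramble without imatinib.

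ABCB1 and ABCB4, the phospholipid flippase gene beside it on chromosome 7, both had their lowest count in the knockdown library with imatinib. ABCB4 had 4 counts there, against 10 in scramble with imatinib, and 11 in the knockdown library, against 15 in the scramble library. The counting interval of its log2 ratio with imatinib ran from -3.33 to 0.59 and spans 0.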
